A study of Mus musculus with 26 samples.

Results

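The genes of the replicative helicase were followed in mouse embryonic fibroblasts (MEFs). The 10 genes were Gins1, Gins2, Gins3 and Gins4, which encode the GINS complex, and Mcm2, Mcm3, Mcm4, Mcm5, Mcm6 and Mcm7, which encode the MCM ring. They were chosen by name and matched through Ensembl identifiers of the GENCODE M21 annotation, and are 10 of the 53801 gene identifiers in each RNA-Seq file, 53706 of which were found in that annotation. All 10 had counts in every library and passed the filter on low counts in each comparison. On GRCm38 they lie apart from each other: Gins1 (ENSMUSG00000027454) at chr2:150905400-150931280, Gins2 (ENSMUSG00000031821) at chr8:120578633-120589304, Gins3 (ENSMUSG00000031669) at chr8:95633453-95645060 and Gins4 (ENSMUSG00000031546) at chr8:23226616-23237659. The MCM genes are Mcm2 (ENSMUSG00000002870) at chr6:88883474-88898780, Mcm3 (ENSMUSG00000041859) at chr1:20802968-20820312, Mcm4 (ENSMUSG00000022673) at chr16:15623897-15637400, Mcm5 (ENSMUSG00000005410) at chr8:75109569-75128439, Mcm6 (ENSMUSG00000026355) at chr1:128331590-128359664 and Mcm7 (ENSMUSG00000029730) at chr5:138164583-138172422.

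In the MCM ring, 6 related ATPase subunits encircle DNA. The ring is loaded at replication origins before S phase by the origin recognition complex with Cdc6 and Cdt1. It becomes an active helicase, called CMG, when Cdc45 and the GINS complex bind it, and it then unwinds the DNA ahead of the polymerases. Transcription of many of its subunits rises as cells enter S phase and is known to depend on E2F factors, so their RNA is high in cultures that divide.

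The study compared female MEFs of 3 kinds, grown in the same medium. WT cells carry intact ATRX, a chromatin remodeler that also binds RNA. ATRXΔRBR cells are a single clone in which the RNA binding region of endogenous ATRX, in exon 9, was removed in frame with CRISPR. ATRX KD cells express an shRNA against ATRX and were selected with puromycin. Polyadenylated RNA was sequenced from 2 libraries of each kind. CUT&RUN, which releases and sequences chromatin fragments bound by an antibody, gave 2 peak lists each of ATRX in WT and ATRXΔRBR cells and of EZH2, the catalytic subunit of PRC2, and H3K27me3, the mark that it deposits, in all 3 kinds of cells.

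The RNA-Seq libraries held between 9051693 and 21723647 estimated counts, of which the 10 genes took between 21221 and 51482. The 2 ATRX KD libraries were closer to each other than the pairs of the other cells. The chi-square between replicates per degree of freedom, over genes with at least 20 counts in the pair, was 3.12 in ATRX KD, against 26.7 in WT and 21.6 in ATRXΔRBR. No sequencing run is named for the ATRX KD libraries in the sources used here, so a batch and the knockdown cannot be told apart. The Atrx gene itself had 633 and 434 CPM (counts scaled to a common library size, explained with the comparisons) in WT, 371 and 312 in ATRXΔRBR, with 411 and 550 in the libraries labelled ATRX KD. Its level in these KD libraries overlapped that in WT (log2 fold change −0.15 ± 0.21 (SE), adjusted p = 0.604 with edgeR), and on the scale of log2(TPM + 1) it was 1.18 higher. The RNA therefore did not show a lower Atrx level in the libraries labelled ATRX KD, and polyadenylated RNA does not show the protein. For the protein, the study shows a western blot of WT and KD nuclear extract and describes ATRX as acutely depleted in its KD lines. Of 10 fibroblast markers, Vim, Col1a1, Col1a2, Fn1, Pdgfra and Pdgfrb were above 10 TPM in every library, while Thy1 was at 0 in all 6. Lum was at 0 in WT and ATRX KD and had a mean of 0.045 TPM in ATRXΔRBR. Dcn was low, with means of 1.165 TPM in WT, 4.05 in ATRXΔRBR and 0 in ATRX KD. Col3a1, a fibrillar collagen, had 28.1 and 32.2 TPM in WT, 20.3 and 15.8 in ATRXΔRBR, but 0.36 and 0.75 in ATRX KD, and was called lower in both against WT (log2 fold changes −0.91 and −6.99, adjusted p of 0.0225 and 2.44e-05, edgeR). Of the 13 markers of epithelial, endothelial, blood and pluripotent cells, Cd68, with 4.55 to 12.1 TPM, and Pecam1, with up to 5.22 TPM in ATRXΔRBR and 0 in ATRX KD, were the only ones above 5 TPM in any library. The part of these differences in the results was not tested.

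Start regions of the helicase genes are shown because ATRX and EZH2 were profiled there and because E2F sites are known for this gene family. The RefSeq promoter table of GRCm38.p6, which gives 250 bases before a start and 50 after it, held 7 entries for 6 of the 10 genes. Gins1, Gins2, Gins4 and Mcm4 had no entry. Below are Mcm5, which had an ATRX peak over its promoter in most lists, Mcm6, which had the largest RNA difference of the 10 genes between ATRXΔRBR and WT, Mcm7, which had the largest between ATRX KD and WT, and Mcm2, which had no E2F word. They lie at chr8:75109259-75109558 (plus strand), chr1:128359656-128359955 (minus strand), chr5:138171834-138172133 (minus strand, one of 2 entries) and chr6:88898731-88899030 (minus strand). Capitals mark the E2F words TTTCGCGC, TTTGGCGC, TTTCCCGC and TTTGCCGC and their reverse complements, overlapping matches being merged.
Mcm5: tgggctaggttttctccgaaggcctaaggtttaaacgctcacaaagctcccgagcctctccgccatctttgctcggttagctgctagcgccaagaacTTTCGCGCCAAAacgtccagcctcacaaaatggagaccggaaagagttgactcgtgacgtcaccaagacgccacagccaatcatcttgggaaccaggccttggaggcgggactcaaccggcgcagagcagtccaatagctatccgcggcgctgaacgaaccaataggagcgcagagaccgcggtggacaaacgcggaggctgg
Mcm6: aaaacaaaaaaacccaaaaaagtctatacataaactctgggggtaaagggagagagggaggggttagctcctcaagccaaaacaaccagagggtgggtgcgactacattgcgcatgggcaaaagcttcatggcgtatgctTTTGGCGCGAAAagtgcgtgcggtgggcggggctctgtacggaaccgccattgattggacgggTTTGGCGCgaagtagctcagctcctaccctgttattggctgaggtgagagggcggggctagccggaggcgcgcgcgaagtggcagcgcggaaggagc
Mcm7: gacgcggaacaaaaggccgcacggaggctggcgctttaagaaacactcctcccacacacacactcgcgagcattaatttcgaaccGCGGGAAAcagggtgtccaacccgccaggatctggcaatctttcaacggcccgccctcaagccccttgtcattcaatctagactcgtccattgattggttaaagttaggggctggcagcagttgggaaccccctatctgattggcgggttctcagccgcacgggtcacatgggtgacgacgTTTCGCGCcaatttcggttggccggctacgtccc
Mcm2: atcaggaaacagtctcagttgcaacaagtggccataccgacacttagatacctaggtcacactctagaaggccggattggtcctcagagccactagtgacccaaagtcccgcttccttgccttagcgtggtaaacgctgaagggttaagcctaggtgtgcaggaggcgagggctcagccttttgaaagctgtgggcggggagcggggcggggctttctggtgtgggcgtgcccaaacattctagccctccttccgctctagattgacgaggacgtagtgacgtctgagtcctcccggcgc

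An E2F word was found in 5 of the 6 genes with an entry, all but Mcm2, and in 2.26% of the 32851 promoter entries of the table. Mcm3, Mcm6 and the Mcm7 entry printed above each held 2 separate matches and Gins3 and Mcm5 held 1. The other Mcm7 entry, at chr5:138171217-138171516, held 0, so Mcm7 was counted through the printed entry. The word CCAAT, on either strand, was in an entry of all 6 genes (37.4% of all entries), GGGCGG in 5 (35.7%), TTTGAA in 2 (17.9%) and CACGTG in 0 (7.15%). These matches describe the letters of the window and are not binding sites shown by these data. The GC content of the 7 entries lay between 48.7% in Mcm3 and 61.3% in the other Mcm7 entry, against a median of 52.7% over all entries.

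Per length, the MCM genes had the higher summed level, although single GINS and MCM genes overlapped: Gins2 lay above Mcm2 in both WT libraries. TPM is the share of a gene among all transcripts after division by transcript length, and is the only scale used here to set one gene against another. Among the MCM genes in WT, Mcm4 had 405 and 420 TPM, Mcm3 426 and 326, Mcm5 299 and 354, Mcm6 247 and 289, Mcm7 214 and 233, and Mcm2 158 and 192. The range of Mcm3 overlapped those of Mcm4 and Mcm5, the other neighbours in this order did not overlap, and Mcm2 was the lowest MCM gene in both WT libraries. Among the GINS genes, Gins2 had 202 and 209 TPM in WT, Gins4 122 and 117, Gins1 76.8 and 71.0, and Gins3 28.3 and 36.6. These GINS levels did not overlap each other, and Gins3 was the lowest of the 10 genes in all 6 libraries. In ATRX KD the order of the MCM genes was different, with Mcm6 (362 and 356 TPM) and Mcm3 (357 and 361) highest, Mcm4 at 310 and 306, Mcm2 at 302 and 295, and Mcm7 lowest at 120 and 117. The highest MCM gene exceeded the lowest by 2.70 and 2.19 times in WT, 2.70 and 2.33 times in ATRXΔRBR, with 3.02 and 3.10 times in ATRX KD.

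The summed TPM of the 4 GINS genes was 429 and 433 in WT, 380 and 437 in ATRXΔRBR, with 320 and 316 in ATRX KD. The sum of the 6 MCM genes was 1748 and 1813 TPM in WT cells, was highest in ATRXΔRBR with 2109 and 2006, and was 1777 and 1757 in ATRX KD. The ratio of the MCM sum to the GINS sum was 4.08 and 4.19 in WT, 5.55 and 4.59 in ATRXΔRBR, with 5.55 and 5.56 in ATRX KD. The ratio, which does not depend on how libraries are scaled, was lower in both WT libraries than in the other 4. It is given as a description, with no test.

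**Figure D1:**
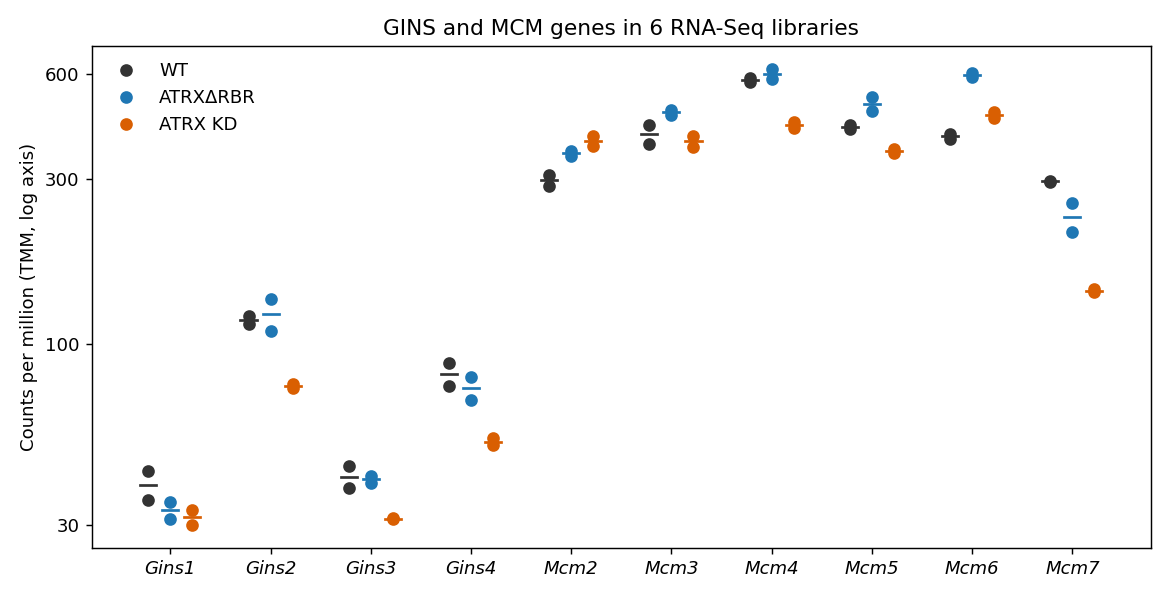
CPM (TMM scaling, log axis) of each GINS and MCM gene in the 6 RNA-Seq libraries. Points are libraries and short lines are means of 2. Mcm7, Gins2, Gins4, Mcm4, Gins3 and Mcm5 lie lower in both ATRX KD libraries than in all other libraries. Mcm3, Mcm5 and Mcm6 are highest in both ATRXΔRBR libraries.

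The first comparison asked whether removal of the RNA binding region of ATRX went with a change in helicase RNA. CPM is the count divided by the library size after TMM scaling, which serves to compare 1 gene between libraries. The test was the quasi-likelihood test of edgeR, its p adjusted by Benjamini-Hochberg over all genes tested, and a gene was called at an adjusted p under 0.05. Of the 10 helicase genes, 0 were called in ATRXΔRBR against WT with edgeR, 1 had an unadjusted p under 0.05, and DESeq2 called 1. Of all 16287 genes tested, 6.88% were called, 2.79% higher and 4.08% lower, and 3355 had an unadjusted p under 0.05 (edgeR). Shares of all genes called are those of edgeR throughout. None is given for DESeq2, or for the TPM scale with ATRX KD, so those counts cannot be set against a share. The groups did not overlap in 6 of the 10 genes (Gins1, Mcm2, Mcm3, Mcm5, Mcm6 and Mcm7), against 49.6% of all genes tested. A crossed pairing of replicates, chosen after seeing the data, called more genes in all and more on each list. Its counts are given at the end, with the dependence on processing.

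Mcm6, a subunit of the ring, had 390 and 404 CPM in WT, 605 and 589 in ATRXΔRBR, with 467 and 449 in ATRX KD. Both ATRXΔRBR libraries lay above both WT libraries, and the replicates of each group were close. The log2 fold change of 0.595 ± 0.155 (SE, n = 2 against 2) had an adjusted p of 0.0643 with edgeR and of 0.0301 with DESeq2. It was also past the threshold without the filter on low counts and with all 6 libraries in a single fit, so the call of Mcm6 depends on the method.

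Of the other MCM genes, Mcm2 had 286 and 307 CPM in WT and 349 and 361 in ATRXΔRBR, and Mcm5 had 418 and 427 against 471 and 515. Mcm3 had 428 and 378 against 459 and 473. These differences, of 0.27 ± 0.16, 0.23 ± 0.16 and 0.22 ± 0.16 on the log2 scale (SE), did not pass the test (adjusted p between 0.399 and 0.507, edgeR). Mcm4 overlapped between the groups, with a log2 fold change of 0.07 ± 0.16. Mcm7 was the only MCM gene with a negative value (−0.33 ± 0.17, adjusted p = 0.325, edgeR).

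The GINS genes had log2 fold changes between −0.23 (Gins1) and 0.06 (Gins2) in ATRXΔRBR, with adjusted p of 0.547 or more. Gins2, chosen by the study as a browser view of ATRX binding, had 121 and 114 CPM in WT and 109 and 135 in ATRXΔRBR. The WT values lay between those of ATRXΔRBR, and the sign of its fold change turned on the TPM scale. The median log2 fold change was −0.07 over the GINS genes and 0.22 over the MCM genes, beside −0.02 over all genes tested.

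The second comparison set the libraries labelled ATRX KD against WT, and 5 of the 10 helicase genes were called. Mcm7, Gins2, Gins4 and Mcm4 were lower and Mcm2 was higher. Of all 16748 genes tested, 33.1% were called, 15.2% higher and 17.8% lower. The groups did not overlap in 9 of the 10 genes, all but Mcm3, against 69.9% of all genes. On the TPM scale 5 members were also called, 1 higher and 4 lower, although the median of all genes moved from −0.02 with TMM to 0.17 there. The share of all genes called on that scale is not given here, so these 5 cannot be set against it.

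Mcm7 had the largest difference of the 10 genes. It had 296 and 293 CPM in WT, 211 and 255 in ATRXΔRBR, with 141 and 144 in ATRX KD. Both ATRX KD libraries lay below all others, with ATRXΔRBR in between. The log2 fold change in ATRX KD against WT was −1.06 ± 0.11 (SE), and the adjusted p was 0.000809 (edgeR). Mcm7 was called in all 12 alternatives to this fit, with values between −1.07 and −0.91 and adjusted p up to 0.00779.

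Gins2 had 121 and 114 CPM in WT and 76.6 and 74.4 in ATRX KD, and Gins4 had 87.9 and 75.3 in WT and 51.05 and 53.3 in ATRX KD. Mcm4 had 571 and 586 CPM in WT and 421 and 436 in ATRX KD. In all 3 genes both ATRX KD libraries lay below both WT libraries. The log2 fold changes were −0.64 ± 0.12 for Gins2, −0.65 ± 0.13 for Gins4 and −0.44 ± 0.10 for Mcm4, with adjusted p of 0.00663, 0.0105 and 0.018 (edgeR). Gins3 had 38.2 and 44.3 CPM in WT and 31.2 and 31.4 in ATRX KD, but did not pass the test (−0.40 ± 0.14, adjusted p = 0.0652, edgeR). Gins1 (−0.31 ± 0.15) and Mcm5 (−0.23 ± 0.10) also did not pass (adjusted p of 0.164 and 0.126, edgeR).

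Mcm2 was higher in ATRX KD, with 286 and 307 CPM in WT against 372 and 399, a log2 fold change of 0.37 ± 0.11 (adjusted p = 0.0389, edgeR). On the TPM scale the difference was 0.78. RSEM's effective length of Mcm2, by which TPM is divided, was 3309 and 3248 bp in WT and 2778 and 2973 bp in ATRX KD. It was shorter in both ATRX KD libraries than in the other 4, and the part of this in the TPM difference was not tested. Mcm6 (0.20 ± 0.11) and Mcm3 (−0.07 ± 0.12) did not pass the test.

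When 1 library of a group was left out, the spread within groups came from the other pair alone. The chi-square per degree of freedom was 26.7 in the WT pair and 3.12 in the ATRX KD pair. The number of calls then depends on which pair is left, and does not show that a given library was needed. Without ATRX KD replicate 1 and 2 in turn, Gins2 had −0.67 and −0.60 and Mcm4 −0.41 and −0.44 on the log2 scale. These values stayed close to those above. The ranges of calls, over all genes and over members, are given at the end.

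**Figure D2:**
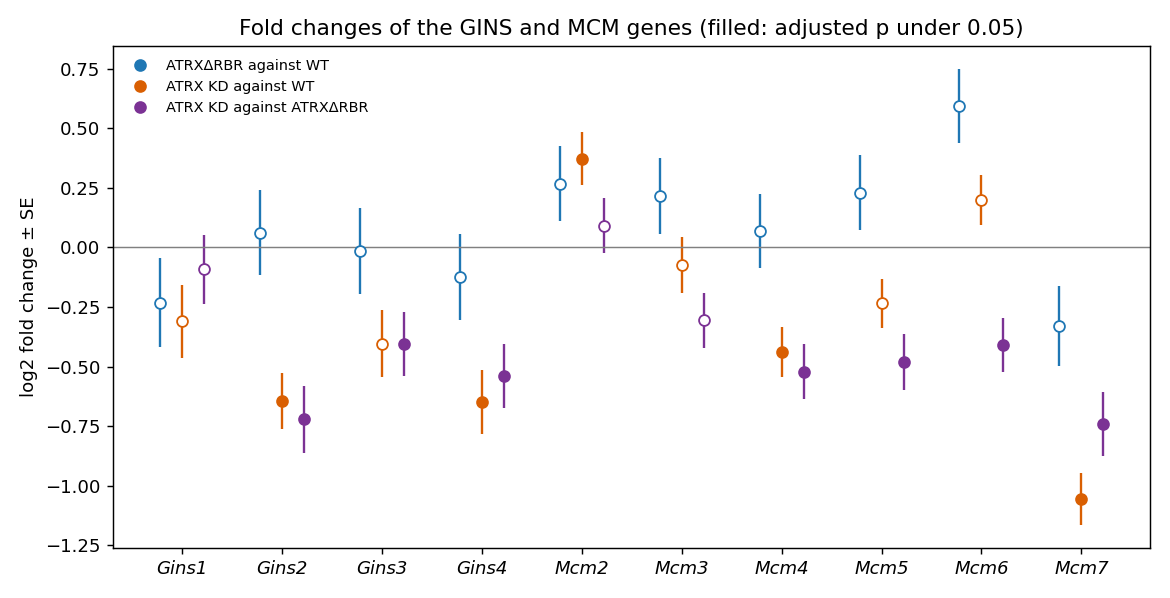
Log2 fold changes of the GINS and MCM genes with SE in the 3 comparisons of RNA-Seq libraries, 2 against 2. Filled points had an adjusted p under 0.05 (edgeR). Mcm7 has the lowest value, −1.06 in ATRX KD against WT, and no point of ATRXΔRBR against WT is filled.

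Set against each other, ATRX KD had lower levels than ATRXΔRBR in 7 of the 10 genes (Gins2, Gins3, Gins4, Mcm4, Mcm5, Mcm6 and Mcm7) and higher levels in 0 of them by edgeR. At an unadjusted p under 0.05 there were 8, the eighth being Mcm3, also lower. DESeq2 called 6, all lower. In the whole table of 16485 genes, 34.8% were called, 16.3% higher and 18.5% lower, and 7311 had an unadjusted p under 0.05 (edgeR). The groups did not overlap in 9 of the 10 genes, all but Gins1, against 68.9% of all genes. This comparison shares its libraries with the other comparisons and is not independent of them.

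The size of the difference lay between −0.74 ± 0.13 for Mcm7 and −0.40 ± 0.14 for Gins3 on the log2 scale (SE) among the 7 genes. Gins2 fell by 0.72 ± 0.14 (adjusted p = 0.00462, edgeR), from 109 and 135 CPM in ATRXΔRBR to 76.6 and 74.4 in ATRX KD. Mcm5 fell by 0.48 ± 0.12, from 471 and 515 CPM to 356 and 365. Mcm6 fell by 0.41 ± 0.11, and both ATRX KD libraries (467 and 449 CPM) lay above both WT libraries (390 and 404 CPM). The number of calls changed when an ATRX KD library was left out, and its range is given at the end, with the dependence on processing.

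Some helicase genes share their start region with a neighbour, and the neighbours did not all move with them. Within 1 kb, Gins1, Gins2, Mcm4 and Mcm7 each face a gene of the other strand. Ap4m1, a subunit of an adaptor complex of vesicle traffic, starts 420 bp from the start of Mcm7 and overlaps it by 421 bp. It was also lower in ATRX KD against WT (−0.82 ± 0.15, adjusted p = 0.00672, edgeR), and without known strand of counting the reads of the overlap cannot be told apart. Prkdc, the catalytic subunit of the DNA-dependent protein kinase, starts 466 bp from Mcm4 and was higher in ATRX KD (0.85 ± 0.24, adjusted p = 0.0307, edgeR), where Mcm4 was lower. Abhd12, which starts 659 bp from Gins1, had 0.30 ± 0.13 (adjusted p = 0.127, edgeR). Gm10614, a long noncoding RNA that starts 227 bp from Gins2, had 0 to 2 counts in a library. The end of Gse1 overlaps Gins2 on the other strand by 2758 bp, and Gse1 was higher in ATRX KD (1.20 ± 0.16, adjusted p = 0.00216, edgeR), where Gins2 was lower. Gm20388, annotated as protein-coding, spans all 10672 bp of Gins2 on the other strand and had 0.46 ± 0.16 against WT (adjusted p = 0.0712, edgeR) and 0.64 ± 0.12 against ATRXΔRBR (adjusted p = 0.00433). Cops6 overlaps Mcm7 by 64 bp on the other strand and was lower in ATRX KD against WT (−0.46 ± 0.11, adjusted p = 0.0216, edgeR). For these pairs too, reads of the overlap cannot be told apart without known strand of counting.

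The other genes of DNA replication were read from a list of 50 genes in 5 roles. In ATRXΔRBR against WT, edgeR called 0 of the 50, and DESeq2 called 1, Pold1, the catalytic subunit of polymerase delta. At an unadjusted p under 0.05 by edgeR there were 5 of the 50, beside 3355 of all 16287 genes tested. In ATRX KD against WT, 1 rose and 15 fell. Of all genes tested there, 33.1% were called, 15.2% higher and 17.8% lower. The median log2 fold change of the 50 genes was −0.15, beside −0.02 over all genes tested. On the TPM scale 2 rose and 4 fell.

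Genes of the replication fork held most of these calls in ATRX KD. Of 17 fork genes, 10 fell and 1 rose, beside 17.8% lower and 15.2% higher over all genes tested. Pcna, the sliding clamp, had 184 and 193 CPM in WT, 169 and 179 in ATRXΔRBR, with 112 and 102 in ATRX KD, a log2 fold change of −0.83 ± 0.12 (adjusted p = 0.00277, edgeR). The clamp loader genes Rfc3, Rfc4 and Rfc5 fell by 1.08, 0.65 and 0.70, and Rpa3, of the single strand binding protein RPA, fell by 0.88. Clspn (claspin, which links the fork to the checkpoint kinase Chk1) was the one that rose, by 1.06 ± 0.14, from 66.9 and 83.4 CPM in WT to 151 and 164. Of 9 licensing genes, 2 fell, among them Orc5, of the origin recognition complex, by 0.93. Of 12 polymerase genes, 3 fell, among them Pold4, a small subunit of polymerase delta, by 0.90.

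Of 9 activation genes, 0 were called in ATRX KD against WT by edgeR and 0 by DESeq2, with 2 at an unadjusted p under 0.05. Of all 16748 genes tested there, 7463 had an unadjusted p under 0.05 (edgeR). Cdc45, the third part of the CMG helicase, had 99.4 and 111 CPM in WT, 91.9 and 105 in ATRXΔRBR, with 84.3 and 82.6 in ATRX KD. The ATRX KD values were lowest, with a log2 fold change of −0.34 ± 0.12 against WT, but the test was not passed (adjusted p = 0.0707, edgeR). Of the 3 other MCM genes on the list, Mcm8, Mcm9 and Mcmbp, 0 were called by edgeR and 0 by DESeq2, and 2 had an unadjusted p under 0.05.

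In ATRX KD against ATRXΔRBR, 2 of the 50 genes rose and 12 fell, beside 34.8% of all genes called, 16.3% higher and 18.5% lower. Clspn had the smallest adjusted p (log2 fold change 1.29 ± 0.13, adjusted p = 0.000129, edgeR), and the other that rose was Mcm10, a scaffold of the active helicase. Among those that fell, Pold4 fell by 1.43, Orc5 by 0.90, Rpa3 by 0.90 and Recql4, a helicase of origin activation, by 0.90. Mtbp, which acts with treslin in origin firing, fell by 0.89, Pola2 by 0.75 and Pcna by 0.74.

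**Figure D3:**
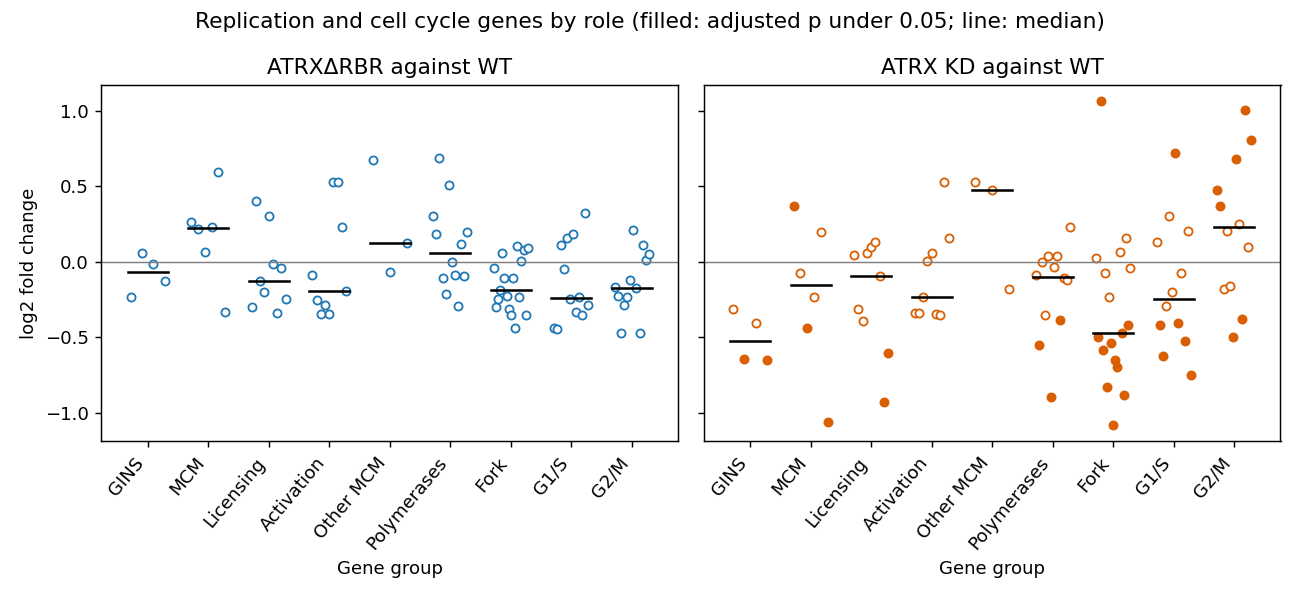
Log2 fold changes of helicase, replication and cell cycle genes by role in ATRXΔRBR against WT and ATRX KD against WT. Each point is a gene, filled points had an adjusted p under 0.05 (edgeR), and lines are medians. In ATRX KD, 10 of 17 fork genes are filled below 0 and 5 of 12 G2/M genes are filled above 0, while no point is filled in ATRXΔRBR.

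Since helicase RNA is higher in dividing cells, 24 genes known to peak in a phase of the cell cycle were read beside it. In ATRXΔRBR against WT, edgeR called 0 of 24 and DESeq2 called 0. At an unadjusted p under 0.05 by edgeR there were 3 of 24, beside 3355 of all 16287 genes tested. In ATRX KD against WT, the 12 G1/S genes had 1 that rose, Rrm2 (0.72 ± 0.11), and 5 that fell, among them Ung (−0.75 ± 0.14) and Tyms (−0.53 ± 0.12). Of the 12 G2/M genes, 5 rose and 2 fell, beside 15.2% and 17.8% of all genes tested. Mki67, a marker of dividing cells, had 217 and 376 CPM in WT, 424 and 214 in ATRXΔRBR, with 586 and 608 in ATRX KD, and rose by 1.00 ± 0.23. Top2a rose by 0.80 ± 0.12 and Ccnb2 by 0.68 ± 0.12, while Cdk1 fell by 0.38 ± 0.10. On the TPM scale the 24 genes had 7 that rose and 0 that fell in place of 6 and 7. That analysis differs in scaling, in division by length and in the test. The size factors of DESeq2 in edgeR gave 6 and 7, but they hardly changed the scaling. The median log2 fold change of all genes was −0.0193 with them, −0.0199 with TMM and 0.17 on the TPM scale. The part of scaling in the TPM counts therefore cannot be read from them.

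In ATRX KD against ATRXΔRBR, 8 of the 24 cell cycle genes rose and 3 fell, beside 16.3% and 18.5% of all genes tested. On the TPM scale 10 rose and 1 fell. Of the 12 G2/M genes, 6 rose (Top2a, Aurka, Aurkb, Bub1, Mki67 and Ccnb2), with log2 fold changes between 0.45 and 0.88, and 1, Ccnb1, fell by 0.39. The levels of Mki67 overlapped between WT and ATRXΔRBR, where replicates of the same cells differed by more than the cell kinds did.

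Over the 6 libraries, the mean of the centred log2 CPM of the 10 genes was correlated with each of 9155 protein-coding genes with a mean of at least 10 CPM and on none of the lists. Among the 5 most alike were Akt2 (Pearson r = 0.9999), Gcat (0.9986), Rcor2 (0.9972) and Zbtb12 (0.9965). This is a description over 6 libraries of 3 kinds of cells that share scaling and depth. The helicase genes themselves had r between −0.57 for Mcm2 and 0.98 for Gins2 with their mean.

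At the start sites, a peak was counted where at least 1 bp lay within 2 kb of the outermost start (TSS) of the gene. The same was counted over all protein-coding genes with a mean of at least 5 TPM in WT, called expressed genes here. ATRX peaks were found at 4 of the 10 genes in each WT list, where 22.8% (replicate 1) and 10.7% (replicate 2) of those genes had a peak. The ATRXΔRBR lists had 5 and 2 of the 10, where 26.6% and 9.17% of those genes had a peak. The mean was 4 ± 0 (SD, n = 2) in WT and 3.5 ± 2.12 in ATRXΔRBR, a difference smaller than that between the ATRXΔRBR lists. The lists held 9141, 4781, 6274 and 4813 ATRX peaks, and the read number behind each list was not used here.

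Gins4 was the only helicase gene with an ATRX peak at the TSS in all 4 lists. The peaks lay from 106 bp before the TSS to 187 bp after it and from 216 to 41 bp before it in WT, and from 155 bp before to 142 bp after and from 292 to 99 bp before it in ATRXΔRBR. Mcm4 had a peak in both WT lists and in replicate 2 of ATRXΔRBR, within the region shared with Prkdc. Mcm5 had one in both WT lists and in replicate 1 of ATRXΔRBR, at chr8:75109398-75109543, chr8:75109314-75109489 and chr8:75108782-75109428. All 3 lay before the TSS and overlapped the Mcm5 promoter printed above. Gins2, the study's browser example of gained ATRX signal in ATRXΔRBR, had a peak in replicate 1 of each kind of cells only. MACS2 gave it a fold enrichment over local background of 3.99 in WT (−log10 q of 1.8) and 4.64 in ATRXΔRBR (5.01). The study shows signal, while only called peaks were used here. Mcm7 had a peak in WT replicate 2 and ATRXΔRBR replicate 1, between 348 and 978 bp after the TSS. Mcm6, the gene nearest to a call in ATRXΔRBR, had an ATRX peak in ATRXΔRBR replicate 1 alone, from 101 bp before to 337 bp after the TSS. Gins1, Gins3, Mcm2 and Mcm3 had no ATRX peak in the 4 lists.

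The fold enrichment of the ATRX peaks at these genes over the local background, as MACS2 gave it, lay between 3.69 and 5.07, and their −log10 q between 1.28 and 5.01. When only peaks at a q-value up to 0.01 were kept, the mean went from 4 to 1 of the 10 genes in WT and from 3.5 to 2 in ATRXΔRBR. The share of all expressed genes at that threshold is not given here, so these counts cannot be set against it.

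EZH2 peaks lay at the TSS of all 10 genes in both WT lists, where 84.0% and 77.9% of protein-coding genes at 5 TPM or more had one. The ATRXΔRBR lists had 10 and 8 of the 10, beside 86.6% and 57.5%, and the ATRX KD lists had 6 and 9, beside 31.4% and 41.2%. The means were 10 ± 0, 9 ± 1.41 and 7.5 ± 2.12 (SD, n = 2). Gins1, Gins2, Gins3, Mcm4, Mcm5 and Mcm7 had an EZH2 peak in all 6 lists. Mcm2 and Mcm6 lacked one in replicate 2 of ATRXΔRBR and replicate 1 of ATRX KD, Gins4 in replicate 1 of ATRX KD, and Mcm3 in both ATRX KD lists. The lists in ATRX KD held 5376 and 7093 EZH2 peaks in all, against 11408 to 22418 in the other 4, so that fewer peaks were called throughout. The highest −log10 q of a list was 169.7 to 178.8 in the 4 lists of ATRX KD and 17.2 to 36.8 in the other EZH2 and H3K27me3 lists, and the part of this in the lower counts was not tested.

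**Figure D4:**
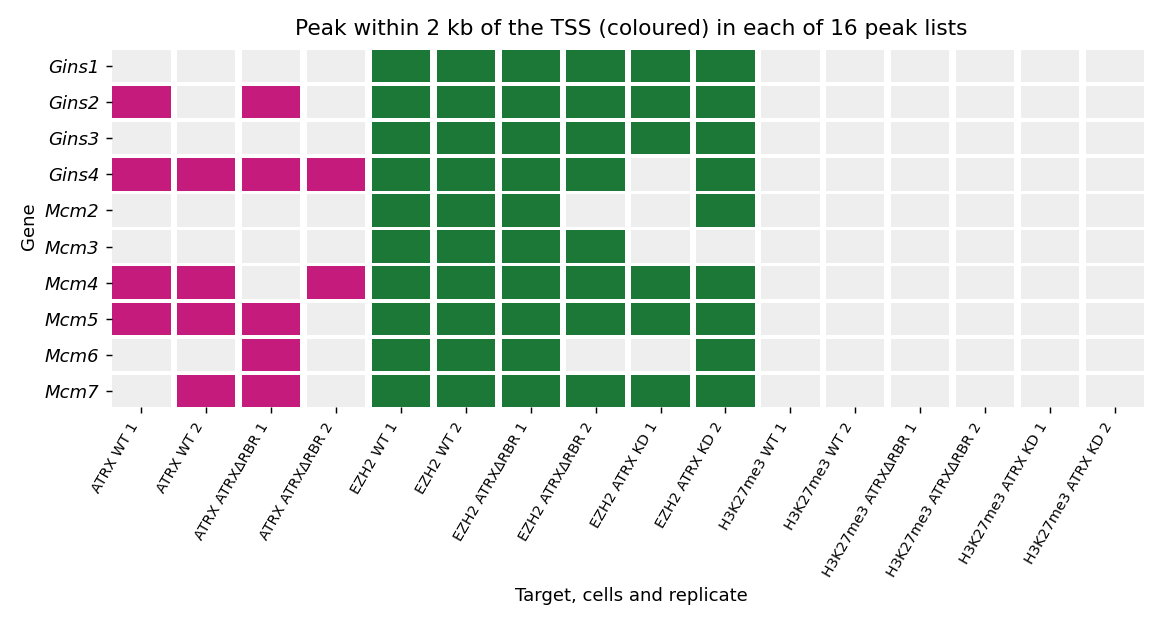
Presence of a peak within 2 kb of the TSS (coloured) for the 10 helicase genes (rows) in each of 16 CUT&RUN peak lists (columns). EZH2 is present at all 10 genes in both WT lists, ATRX at 4 in each WT list, and H3K27me3 at 0 in every list.

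ATRX and EZH2 peaks shared bases at these genes. Each of the 15 ATRX peaks at the 10 genes shared at least 1 bp with an EZH2 peak of the same cells, in both EZH2 lists for all but the Mcm6 peak of ATRXΔRBR, which met 1 list. Of all ATRX peaks within 2 kb of an expressed TSS, 91.1% to 96.2% in the 4 lists also met an EZH2 peak of the same cells, and of all ATRX peaks 58.5% to 76.1% did, so the overlap at the helicase genes is near that at other expressed genes. The strongest EZH2 peak at the group was that of Gins2 in WT replicate 1, from 434 bp before to 387 bp after the TSS, where MACS2 gave a fold enrichment of 9.0 at a −log10 q of 14.85. At the 4 genes with no ATRX peak, the fold enrichment of EZH2 lay between 4.35 and 8.39 at Gins1, 3.42 and 8.10 at Gins3, 3.90 and 4.70 at Mcm2, and 5.54 and 5.77 at Mcm3.

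At Gins1 the outermost start belongs to a noncoding transcript, and the coding transcript starts 4194 bp further in, at chr2:150909594-150909594. All 6 EZH2 lists had a second peak over or near it, which ended between 4426 and 4594 bp after the outermost start. The first peak lay before the outermost start, toward Abhd12, in 5 lists and also covered it in replicate 1 of ATRXΔRBR. No ATRX list had a peak within 2 kb of the coding start. In Mcm7 the EZH2 peaks lay 97 to 1605 bp after the outermost start and covered or lay beyond the RefSeq start printed above.

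**Figure D5:**
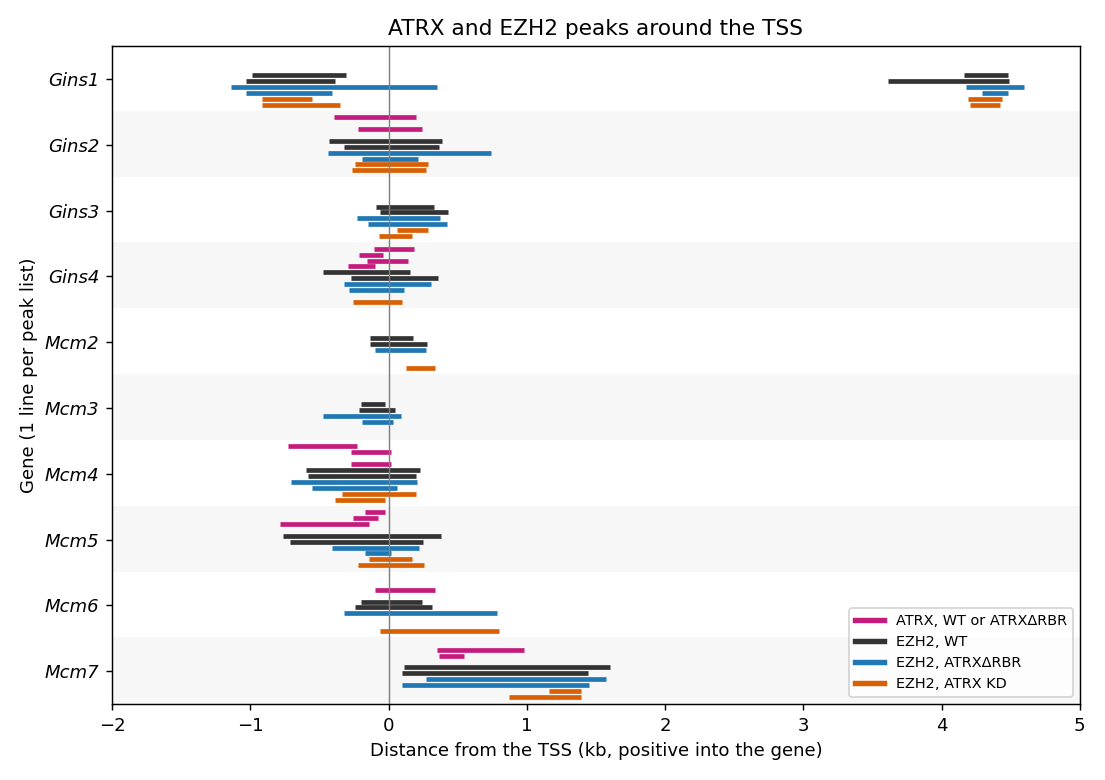
Position of each ATRX and EZH2 peak relative to the TSS of the helicase genes, in kb, positive into the gene. Each line is a peak, and within a gene the lists run from top to bottom as ATRX WT 1 and 2, ATRXΔRBR 1 and 2, then EZH2 WT, ATRXΔRBR and ATRX KD. ATRX peaks lie over EZH2 peaks, and Gins1 has a second EZH2 peak 4 kb into the gene, near its coding start.

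H3K27me3 peaks were at 0 of the 10 genes in all 6 lists, over the TSS and over the gene body. Of protein-coding genes at 5 TPM or more, 3.25% and 3.75% had one at the TSS in WT, 5.81% and 5.25% in ATRXΔRBR, with 1.47% and 1.20% in ATRX KD. These shares are small, so 0 of 10 is near the share of all expressed genes. In WT cells EZH2 was thus called at the starts of all 10 genes and H3K27me3 at none. The 50 replication genes likewise had H3K27me3 at 0 of their TSS in all 6 lists, and EZH2 at 47 and 43 in WT.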

How the data were processed

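RNA-Seq (6 libraries) and CUT&RUN (16 peak lists) of MEFs were used, and 4 IgG libraries were not used here. For RNA-Seq, STAR and RSEM were run by the authors on mm10, and the deposited values are RSEM's estimated counts for each gene. TPM was deposited by the authors as computed by RSEM. FPKM was also deposited by the authors and was not used. For CUT&RUN, the authors used Bowtie2 for mapping and MACS2 for broad peaks, separately for each library. Their fold enrichment (a ratio to local background) and −log10 q were deposited as averages over a peak, and the score column deposited by the authors was not used. The study made its RNA libraries with a directional kit, but whether the strand was used in counting is not given in the sources used here. Tools are named per the labels and the paper's methods.

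A gene was tested when its rounded estimated counts summed to more than 10 in the 4 libraries compared, using edgeR 4.0.16 (TMM, quasi-likelihood, Benjamini-Hochberg over all genes), in R 4.3.3. DESeq2 1.42.0 and limma 3.58.1 on log2(TPM + 1) were alternatives, with DESeq2's size factors, other filters, all 6 libraries, the replicate number as a block, and each library left out. The code was tested on simulated data. Peaks were placed on GENCODE M21 (GRCm38, the same build as mm10) in Python 3.11.15, from 1 bp of overlap. All 10 members are named; of the lists, the called genes with the smallest adjusted p are named, at most 8 per list and comparison, with Cdc45 and Atrx. Mcm8, Mcm9, Mcmbp, Pold1, Mcm10, Ccnb1 and the neighbours were named beyond this rule, after their values were seen. Some genes that the rule names are not reported here. Members and lists were chosen with earlier results of these data known. The study gives only an approximate read number for its CUT&RUN samples, so no precision is given for the peak lists. The study gives RNA replicates as biological, and the p-values cover the spread between these libraries only. No 2 libraries were identical.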

Additional observations from a re-analysis of the deposited data

How the results depend on the processing

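Of the 140 alternative counts of called genes, 97 stayed within 1.5 times the reported count, as did 45 of 48 peak counts. For ATRXΔRBR against WT, all genes called were 1979 without a filter on low counts, 597 with at least 10 counts in every library, 1736 with all 6 libraries and 487 on log2(TPM + 1). Members called there were 1 with DESeq2, 1 without a filter and 1 with all 6 libraries, and replication genes 1, 1 and 2. On log2(TPM + 1), 6 replication and 7 cell cycle genes were called in ATRX KD against WT, and 4 members in ATRX KD against ATRXΔRBR. Keeping peaks at a q-value up to 0.01 gave 1 member with ATRX in WT and 2 in ATRXΔRBR.

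Without each library in turn, ATRX KD against WT called 3194 to 8953 genes, 1 to 10 members, 4 to 32 replication genes and 4 to 17 cell cycle genes. ATRX KD against ATRXΔRBR called 3088 to 8734 genes, 0 to 8 members, 7 to 37 replication genes and 2 to 17 cell cycle genes. ATRXΔRBR against WT called 0 to 1 replication genes, and ATRX lists of ATRXΔRBR alone had 2 to 5 members. In both ATRX KD comparisons the low ends came without an ATRX KD library, and the lone library was then assumed to vary like the other group.

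The sign turned in small values, where the cause was not tested. In ATRXΔRBR against WT, Gins2 was −0.086 on log2(TPM + 1) and ran from −0.082 to 0.205 without a library. Gins3 was 0.049 on log2(TPM + 1) and ran from −0.112 to 0.102, with 0.019 without ATRXΔRBR replicate 1, and Cdc45 ran from −0.172 to 0.009, with 0.002 without WT replicate 2. In ATRX KD against WT, Atrx was 1.178 on log2(TPM + 1) and ran from −0.396 to 0.135, with 0.039 without ATRX KD replicate 1, and Mcm3 ran from −0.16 to 0.005. In ATRX KD against ATRXΔRBR, Gins1 was 0.086 on log2(TPM + 1) and ran from −0.172 to 0.006.

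Deviations of replicate 1 from its group mean were correlated over 9429 genes at −0.765 between WT and ATRXΔRBR, −0.164 between WT and ATRX KD, and 0.194 between ATRXΔRBR and ATRX KD. Genes above the group mean in WT replicate 1 thus tended to lie below it in ATRXΔRBR replicate 1. The labels name no pairing, and the source of this pattern was not tested. With the replicate number as a block, 1068, 5796 and 6775 genes and 0, 4 and 7 members were called in the 3 comparisons, and Mcm2 was not called in ATRX KD against WT (adjusted p = 0.0875, edgeR). A crossed pairing of the replicate block, chosen after seeing the data, called 5547 genes, 3 members, 19 replication genes and 11 cell cycle genes in ATRXΔRBR against WT, and 6494 genes, 5 members, 19 replication genes and 13 cell cycle genes in ATRX KD against WT. Gins3, lower in ATRX KD against ATRXΔRBR by edgeR, was called in 4 of 11 alternatives, with adjusted p from 0.000377 to 0.401. Depth could be read per library for RNA-Seq only.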

Other observations

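RSEM's effective length, which reflects the mix of transcripts of a gene, varied between libraries for some helicase genes. It lay between 1086 and 1371 bp for Gins2 and between 1829 and 2488 bp for Mcm3, with both extremes among WT and ATRXΔRBR libraries, while that of Gins4 lay between 1312 and 1312.5 bp in all 6 libraries. Differences of these genes on the TPM scale therefore hold a change in length as well as in counts.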
